A study of Mus musculus with 12 samples.

Results

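The 42 genes described here encode glutamate receptor subunits, the vesicular transporters that load glutamate, and the auxiliary, scaffold, kinase and adhesion proteins of the postsynaptic density. They were taken by gene name from the probes of the arrays. A probe counted as measured where some group had it marked well above background on each of its 3 arrays, and the probe of highest mean signal stood for its gene. All 42 had such a probe, out of 26495 genes measured, and each of the 42 probes was above background on all 12 arrays, so the filter removed no member.

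Whole brains of BALB/c mice were used, either wild type or interleukin-18 knockout, at 6 or 12 weeks of age. The 4 groups were 6-week wild type, 12-week wild type, 6-week knockout and 12-week knockout, each with 3 biological replicates and 1 array per replicate, and no animal was treated. Interleukin-18 is a cytokine of the interleukin-1 family, and the labels describe no cell-type restriction of its loss. Total RNA was copied from its poly(A) end, labelled with Cy3 and hybridised to Agilent arrays of 60-base probes. Values are log2 signal relative to the 75th percentile of the same array, so a value of 0 means the level of that percentile, and differences between groups are on the log2 scale with their standard error.

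Glutamate is the main excitatory transmitter of the brain. It is loaded into vesicles by the VGLUT transporters and acts on ionotropic receptors, which are ion channels of the AMPA, NMDA and kainate types, and on metabotropic receptors coupled to G proteins. Below the postsynaptic membrane, PSD-95 and its relatives bind the receptors, the Dlgap proteins link PSD-95 to the Shank proteins, and the Homer proteins link Shank to metabotropic receptors. The TARP subunits of the Cacng family carry AMPA receptors to the synapse and hold them there, and the kinase CaMKII acts on them during plasticity.

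The targeted gene was measured first. Il18 read 1.60, 1.75 and 1.52 in 6-week wild type, 1.51, 1.63 and 1.93 in 12-week wild type, -0.28, -0.17 and -0.20 in 6-week knockout, and -0.20, -0.23 and -0.32 in 12-week knockout. It fell by 1.84 ± 0.10 at 6 weeks (adjusted p = 2.29e-05) and by 1.94 ± 0.10 at 12 weeks (adjusted p = 1.20e-05). No knockout array overlapped a wild-type array. Whether its probe lies within the deleted part of the gene is not given in the sources used here.

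The 12 arrays lie on 2 slides, as the file headers show. Slide 1 holds the 6 wild-type arrays and replicates 1 and 2 of the 6-week knockout, and slide 2 holds replicate 3 of the 6-week knockout and all 3 arrays of the 12-week knockout. Over the 42 genes, the first principal component held 64.2% of the variance and split the arrays by slide: the 4 arrays of slide 2 lay between -1.80 and -0.84, and the 8 arrays of slide 1 between 0.26 and 0.92. At 12 weeks, slide and genotype therefore cannot be told apart without the 6-week knockout group, which is the only group with arrays on both slides. The share of spots well above background ran from 65.9% to 76.2% per array, controls left out, and no spot was saturated.

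The members covered a wide range of signal, although the signal of one probe cannot be set against that of another. Their spread within groups was narrow: the median standard deviation was 0.112 over the 42 genes and 0.140 over all genes, from 0.055 for Nlgn1 to 0.317 for Homer3. Standard errors of a difference between 2 groups ran from 0.063 to 0.233, with a median of 0.094. In bulk tissue, fewer cells of a type and less RNA per cell cannot be told apart.

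**Figure D1:**
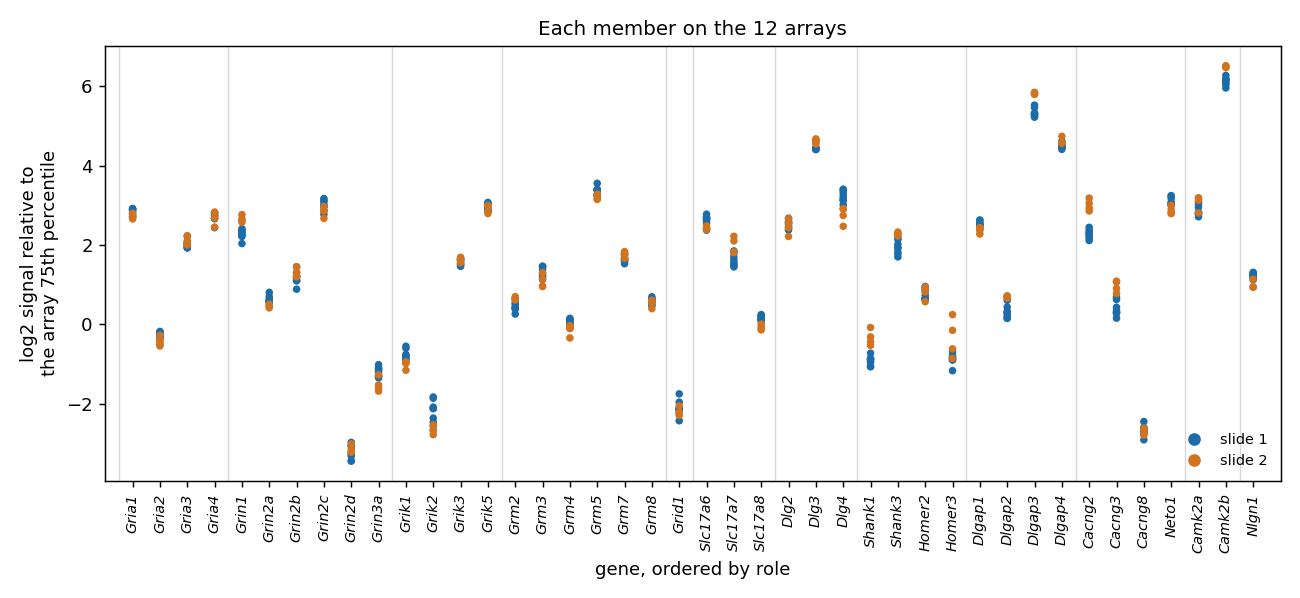
Each of the 42 genes on the 12 arrays, ordered by role along the horizontal axis and separated by grey lines; the vertical axis is the log2 signal relative to the array's 75th percentile, and each point is 1 array coloured by slide. Points of 1 gene lie close together, and for Cacng2 and Dlgap3 the 4 arrays of slide 2 lie above the 8 of slide 1.

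The probes that carry the results are shown by 30 bases of their 60, 5′ to 3′ as the files give them, so that probes of the same gene can be told apart where they disagree. Positions are on build mm9. Capitals mark AATAAA, the hexamer of the polyadenylation signal, where the probe holds it. A matching window of 30 bases was then chosen around it, and otherwise the first 30 bases are given. Its letters were found in the given strand of 3 of the 42 probes used and in 11.6% of all probes above background, and in the reverse strand of 0 of the 42 and 3.76% of all.
Shank3, brighter probe, chr15:89390449-89390508, plus strand: acatttacctgtgggtttttggttctgttc
Shank1, brightest probe, chr7:51613661-51613720, plus strand: ttctctgacacttagcacacccctcacact
Shank1, second probe, chr7:51612669-51612728, plus strand: aacattgaccgggctctcaaatttttcctg
Cacng2, chr15:77825290-77825349, minus strand: ccacaggctatgcggggggaaaatataacc
Dlg4, chr11:69858757-69858816, plus strand: acctcccaccttttttctttgccggtttgc
Dlgap3, brighter probe, chr4:126914197-126914256, plus strand: gagtatcccaggaaaAATAAAaccgcagaa
Camk2b, brighter probe, chr11:5869675-5869734, minus strand: tttctgagccttgtaggtgtacaaaactta
Camk2b, dimmer probe, chr11:5872636-5872695, minus strand: cctgaagctctgggcaacctggtcgaaggg
Gria2, brighter probe, chr3:80488858-80488917, minus strand: tttcatactttacctaatggcaatctggag
Gria2, dimmer probe, chr3:80495725-80495784, minus strand: tttaatttgggggatattccttggggaaaa
Gria4, brighter probe, chr9:4417896-4417955, minus strand: ttgtaggtgcttAATAAAtatttgttgaat
Gria4, dimmer probe, chr9:4502385-4502444, minus strand: ttgaccactatggacgtagagttaattaca
Grik2, brighter probe, chr10:49243534-49243593, minus strand: aaatacagagaatacccaagtctcctccat
Grik2, dimmer probe, chr10:48819269-48819325, minus strand: tagaaaatatacatcaaggggtcttaggat
The exon or untranslated region that each probe lies in is not given in the sources used here.

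At 6 weeks the comparison asks how the knockout brain differs from the wild type. Of the 42 genes, 1 rose and 0 fell, against 0.925% of all genes called in either direction and 0.547% called higher. A gene is called when its limma p-value, adjusted by Benjamini-Hochberg over all 26495 genes, is under 0.05. Shank3, a master scaffold of the postsynaptic density that joins Dlgap and Homer proteins, was the gene that rose. It read 1.83, 1.77 and 1.70 in 6-week wild type and 2.17, 2.14 and 2.27 in 6-week knockout, a difference of 0.43 ± 0.065 (adjusted p = 0.0173). The knockout arrays of both slides lay above every wild-type array of that age. The median difference of the members was 0.03, and that of all genes was 0.04.

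The Shank3 call depended on single arrays. Without 6-week wild-type replicate 2 its adjusted p was 0.0656, without wild-type replicate 3 it was 0.068 and without 6-week knockout replicate 1 it was 0.0614, while the difference stayed between 0.39 and 0.46 as each of the 6 arrays was left out. In the fits that lost the call, 0.291% to 0.442% of all genes were called, against 0.925% with every array. With slide as a fixed block the Shank3 difference was 0.39 and the adjusted p 0.0388, and 0.498% of all genes were called. On the arrays of slide 1 alone the difference was the same and the adjusted p 0.0931. With the slide column as a block, in which the 6-week groups lie in different columns, it was 0.51 with an adjusted p of 0.187.

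Other members had 6-week differences whose arrays did not overlap between genotypes but which were not called. Dlgap2, a PSD-95 binding scaffold, read 0.30, 0.16 and 0.23 in wild type and 0.60, 0.43 and 0.72 in knockout, a difference of 0.36 ± 0.083 (adjusted p = 0.0757). Dlgap3, which is known for its part in corticostriatal synapses, read 5.31, 5.28 and 5.22 against 5.52, 5.46 and 5.84, a difference of 0.34 ± 0.092 (adjusted p = 0.109). In both genes replicate 3 of the knockout, on slide 2, was the highest of the 6 arrays. Grik2, the GluK2 subunit of kainate receptors, read -2.12, -2.09 and -1.83 in wild type and -2.56, -2.47 and -2.66 in knockout, a difference of -0.55 ± 0.13 (adjusted p = 0.0813). Camk2a, the alpha subunit of CaMKII, differed by 0.24 ± 0.099 (adjusted p = 0.230). In all, 7 of the 42 genes had 6-week arrays that did not overlap between genotypes, against 23.7% of all genes, and 5 had an unadjusted p under 0.05, against 18.5% of all genes.

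No receptor gene was called at 6 weeks. Differences ran from -0.14 to 0.12 over the 4 AMPA subunits, from -0.23 to 0.18 over the 6 NMDA subunits, and from -0.11 to 0.09 over the 6 metabotropic receptors. The interval of Grin3a, a subunit of NMDA receptors with low calcium permeability, was -0.22 to 0.20. For Grm8, a presynaptic metabotropic receptor, it was -0.17 to 0.18. Intervals here are 95% confidence intervals from the same fit.

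**Figure D2:**
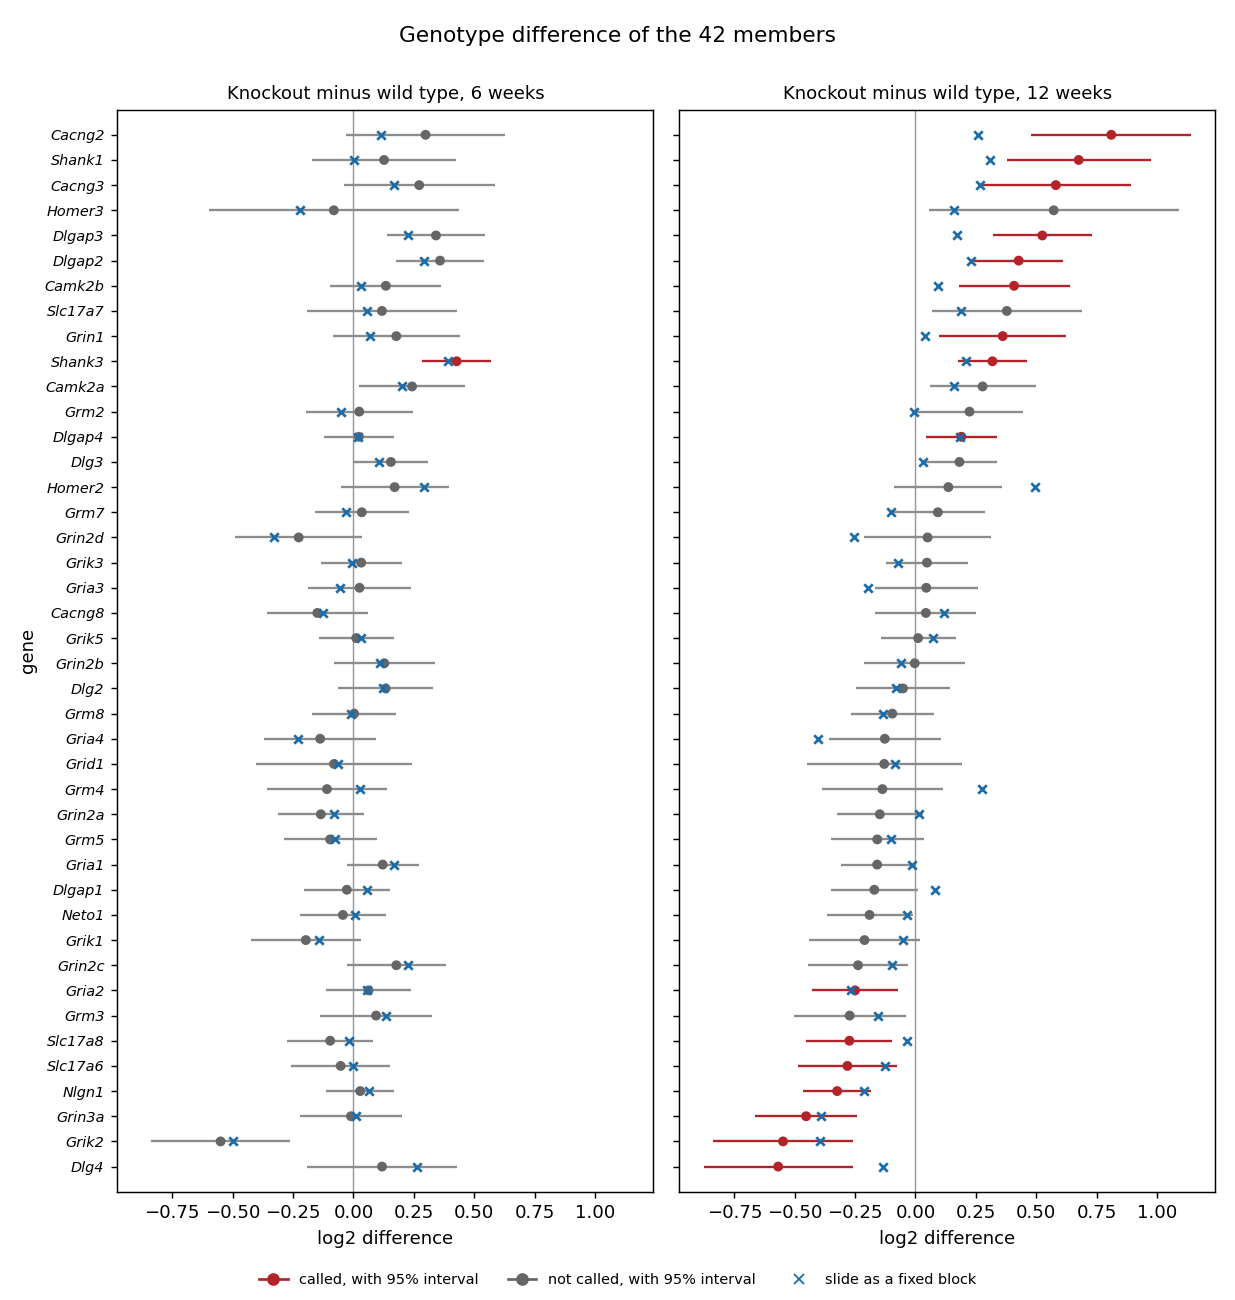
Difference between knockout and wild type (log2, horizontal axis) of each of the 42 genes (vertical axis, ordered by the 12-week value) at 6 weeks on the left and 12 weeks on the right, with 95% intervals; red marks called genes and crosses the value with slide as a fixed block. Only Shank3 is red at 6 weeks, 16 genes are red at 12 weeks, and at 12 weeks most crosses lie nearer 0 than the points.

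At 12 weeks, 16 of the 42 genes were called, of which 9 rose and 7 fell. That is 38.1% of the members, against 33.0% of all genes called at that age, 18.5% called higher and 14.5% called lower, so the share among the members lies near the background. By role, 3 of 4 Dlgap scaffolds, 2 of 4 Shank and Homer scaffolds, 2 of 4 auxiliary subunits, 1 of 2 CaMKII kinases and 1 of 6 NMDA subunits rose. Those that fell were 2 of 3 vesicular transporters, 1 of 3 MAGUK scaffolds, 1 of 4 AMPA, 1 of 6 NMDA and 1 of 4 kainate subunits, and the adhesion protein Nlgn1. None of the 6 metabotropic receptors was called. The median difference of the members was 0.004, and that of all genes 0.02.

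Among the auxiliary subunits, Cacng2, the TARP known as stargazin, read 2.22, 2.26 and 2.18 in 12-week wild type and 3.05, 2.86 and 3.18 in 12-week knockout. The difference was 0.81 ± 0.15 (adjusted p = 0.00649), the largest rise of the 42. Cacng3, a TARP of the forebrain, read 0.68, 0.27 and 0.35 against 1.06, 0.90 and 1.09, a difference of 0.58 ± 0.14 (adjusted p = 0.0135). For both genes every knockout array lay above every wild-type array. Cacng8, a TARP of hippocampal synapses, differed by 0.04 with an interval of -0.17 to 0.25. Neto1, an auxiliary subunit of kainate receptors, differed by -0.19 ± 0.080 (adjusted p = 0.0907).

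Of the Shank and Homer scaffolds, Shank1 read -0.73, -1.07 and -1.07 in 12-week wild type and -0.32, -0.44 and -0.08 in knockout, a difference of 0.68 ± 0.13 (adjusted p = 0.00758). Shank3 read 2.01, 1.92 and 1.94 against 2.28, 2.22 and 2.32, a difference of 0.32 ± 0.065 (adjusted p = 0.00804). Shank3 was therefore called at both ages with the same direction. Homer3, a Homer protein abundant in cerebellum, read -0.79, -0.83 and -0.86 in wild type and -0.15, -0.86 and 0.24 in knockout. Its 3 knockout arrays disagreed and 1 of them lay among the wild-type arrays, and the gene was not called (0.57 ± 0.23, adjusted p = 0.0822). Homer2 differed by 0.14 with an interval of -0.09 to 0.36.

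Of the Dlgap scaffolds, 3 rose. Dlgap3 read 5.33, 5.24 and 5.30 in 12-week wild type and 5.83, 5.79 and 5.82 in knockout, a difference of 0.52 ± 0.092 (adjusted p = 0.0059). Dlgap2 read 0.15, 0.32 and 0.29 against 0.71, 0.67 and 0.66, a difference of 0.43 ± 0.083 (adjusted p = 0.00724). The arrays of each gene were tight within a genotype and apart between them. Dlgap4 read 4.46, 4.41 and 4.45 against 4.57, 4.74 and 4.57, a difference of 0.19 ± 0.066 (adjusted p = 0.0487). Dlgap1 differed by -0.17, with an interval of -0.35 to 0.01.

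Dlg4, which encodes PSD-95, went the other way. It read 3.40, 3.17 and 3.24 in 12-week wild type and 2.74, 2.90 and 2.47 in knockout, a difference of -0.57 ± 0.14 (adjusted p = 0.0139). The highest knockout array lay below the lowest wild-type array. Its relatives did not follow: Dlg2, PSD-93, differed by -0.05 with an interval of -0.25 to 0.14, and Dlg3, SAP102, by 0.18 ± 0.070 (adjusted p = 0.0688). Nlgn1, a postsynaptic adhesion protein that binds neurexins, read 1.31, 1.20 and 1.28 in wild type and 0.94 on each of the 3 knockout arrays, a difference of -0.32 ± 0.063 (adjusted p = 0.00736).

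Among the ionotropic receptors, Grin1, the obligatory NMDA subunit, read 2.41, 2.21 and 2.29 in 12-week wild type and 2.57, 2.76 and 2.65 in knockout, a difference of 0.36 ± 0.12 (adjusted p = 0.0397). Grin3a read -1.11, -1.20 and -1.16 against -1.61, -1.53 and -1.68, a difference of -0.45 ± 0.095 (adjusted p = 0.0087). The 2 called NMDA subunits thus moved in opposite directions. Gria2, the AMPA subunit that sets calcium permeability, read -0.18, -0.20 and -0.27 against -0.46, -0.40 and -0.55, a difference of -0.25 ± 0.080 (adjusted p = 0.0362). Grik2 read -2.12, -1.86 and -2.36 against -2.68, -2.78 and -2.53, a difference of -0.55 ± 0.13 (adjusted p = 0.0126), which is the value it had at 6 weeks. For these 4 genes no knockout array overlapped a wild-type array. The main NMDA subunits of forebrain, Grin2a and Grin2b, differed by -0.15 (-0.33 to 0.03) and -0.003 (-0.21 to 0.21).

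The vesicular transporters mark different glutamatergic neurons, Slc17a7 in cortex and hippocampus, Slc17a6 in thalamus and brainstem, and Slc17a8 in scattered populations. Slc17a6 read 2.65, 2.77 and 2.69 in 12-week wild type and 2.39, 2.48 and 2.40 in knockout, a difference of -0.28 ± 0.093 (adjusted p = 0.0407). Slc17a8 read 0.24, 0.17 and 0.21 against -0.14, -0.06 and 0.005, a difference of -0.27 ± 0.080 (adjusted p = 0.0268). Slc17a7 read 1.85, 1.52 and 1.62 against 2.10, 1.80 and 2.22, a difference of 0.38 ± 0.14 that was not called (adjusted p = 0.0612). Thus 2 transporters were lower, and the third had overlapping arrays. Of the kinases, Camk2b, the beta subunit of CaMKII that binds actin, read 6.17, 6.07 and 6.04 against 6.50, 6.49 and 6.52, a difference of 0.41 ± 0.10 (adjusted p = 0.0159). Camk2a differed by 0.28 ± 0.099 (adjusted p = 0.0530).

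The members not yet named were not called at 12 weeks. Of the AMPA subunits, Gria1 differed by -0.16 ± 0.067 (adjusted p = 0.0913), Gria3 by 0.04 and Gria4 by -0.13. Among the NMDA subunits, Grin2c, which is known from cerebellar granule cells, differed by -0.24 ± 0.093 (adjusted p = 0.0717) and Grin2d by 0.05. The other kainate subunits were Grik1 at -0.21, Grik3 at 0.05 and Grik5 at 0.01, and the delta receptor Grid1 differed by -0.13. The metabotropic receptors ran from -0.27 for Grm3 (adjusted p = 0.0684) to 0.22 for Grm2 (adjusted p = 0.107), with Grm4 at -0.14, Grm5 at -0.16, Grm7 at 0.09 and Grm8 at -0.10. Thus 3 of the 4 AMPA subunits, 4 of the 6 NMDA subunits and 3 of the 4 kainate subunits did not pass the test.

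**Figure D3:**
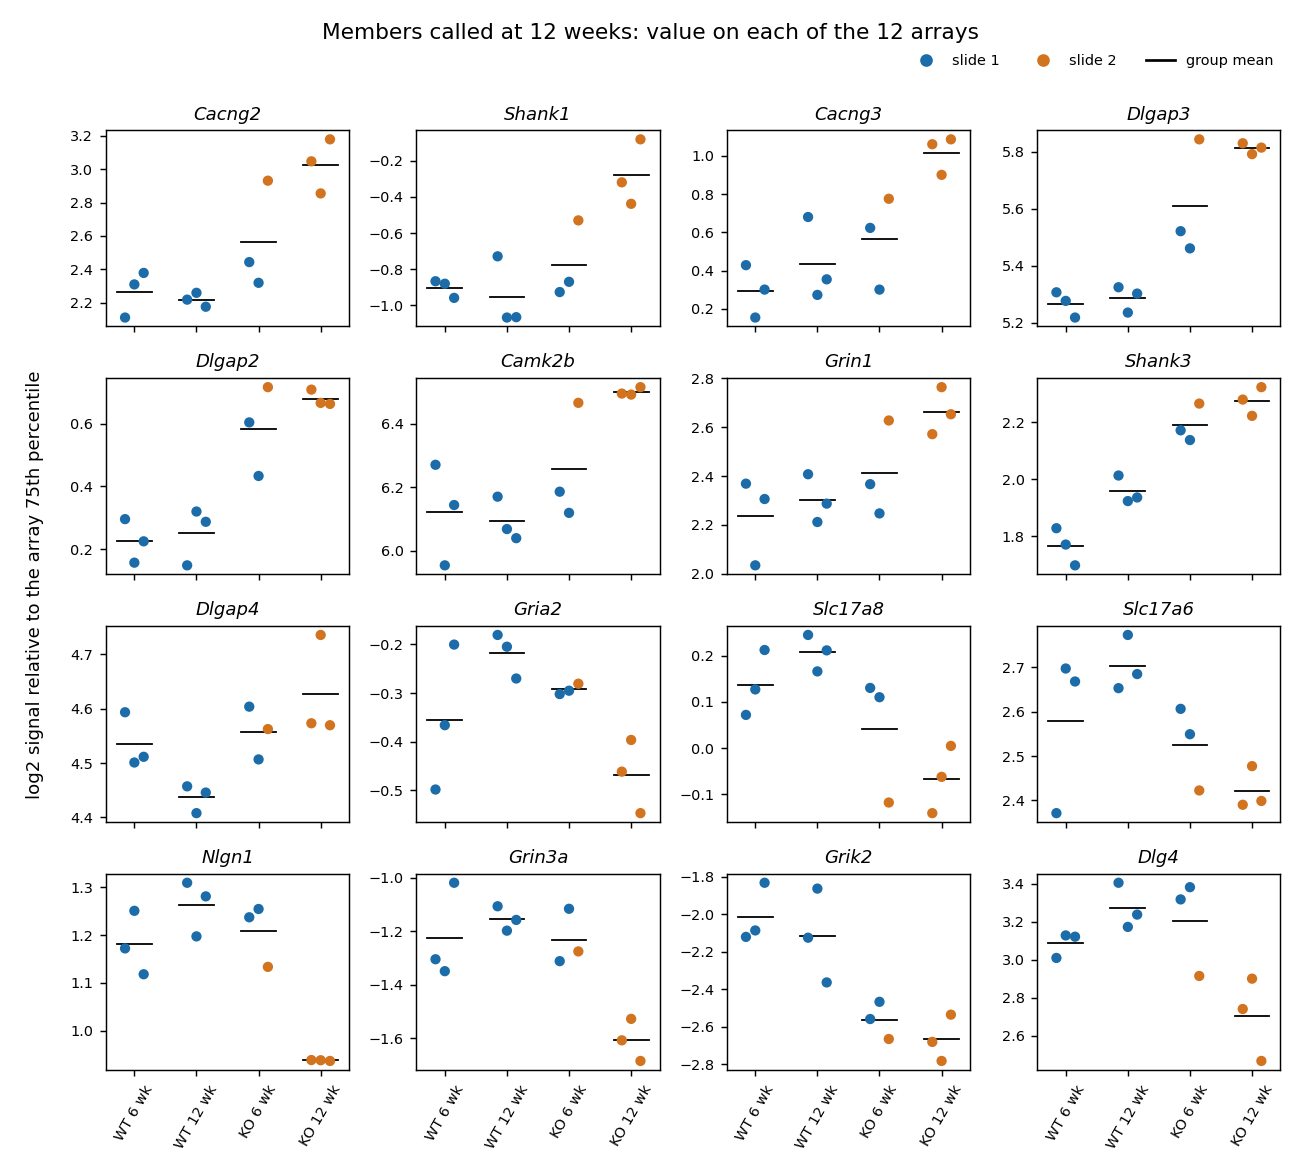
The 16 genes called at 12 weeks, 1 panel each from the highest to the lowest difference; points are the 3 arrays of each group (horizontal axis) on the log2 scale relative to the array's 75th percentile (vertical axis, a separate range in each panel), coloured by slide, and lines are group means. In Cacng2, Dlgap3, Camk2b and Dlg4 the single slide-2 array of the 6-week knockout lies beyond the 2 slide-1 arrays of its own group, on the side of the 12-week knockout.

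Over the 42 genes, 25 had 12-week arrays that did not overlap between genotypes, 10 higher and 15 lower in knockout, against 52.3% of all genes. The split of calls into 9 higher and 7 lower moved with the scaling: it was 14 and 3 with median scaling, which moved the median of all genes from 0.02 to 0.14, and 6 and 11 with quantile normalization, under which Dlgap4 had a difference of -0.001. The weakest calls did not outlast the loss of 1 array. Dlgap4, Grin1 and Slc17a6 were not called without any 1 of the 6 arrays of the 12-week groups, with adjusted p-values up to 0.156, 0.118 and 0.120. Gria2 was called only without 12-week knockout replicate 2 (adjusted p = 0.0483, otherwise up to 0.112), and Slc17a8 only without 12-week knockout replicate 3 (adjusted p = 0.0394, otherwise up to 0.0926). The other 11 genes were called whichever of the 6 arrays was left out. Over all genes the share called also fell in these fits, from 33.0% with every array to between 19.6% and 23.7%.

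With slide as a fixed block, none of the 42 genes was called at 12 weeks by limma, and 0.113% of all genes were. Of the members, 3 had an unadjusted p under 0.05 in that fit, against 8.01% of all genes. With slide as a random block the count was 0 as well. All 16 genes kept their direction in the fit with the fixed block. The differences became 0.26 ± 0.17 for Cacng2, 0.31 ± 0.20 for Shank1, 0.17 ± 0.091 for Dlgap3, 0.09 ± 0.14 for Camk2b and -0.13 ± 0.20 for Dlg4. They moved less for Grin3a, at -0.39 ± 0.17, for Grik2, at -0.40 ± 0.24, and for Gria2, at -0.27 ± 0.14. This fit takes the slide difference from the 6-week knockout group alone, which is 1 array on slide 2 against 2 on slide 1, and its standard errors are larger.

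Values within the 6-week knockout group show the same contrast gene by gene. Cacng2 read 2.44 and 2.32 on the 2 arrays of slide 1 and 2.93 on the array of slide 2, in animals of the same age and genotype. Dlg4 read 3.32 and 3.38 on slide 1 and 2.92 on slide 2. Camk2b read 6.19 and 6.12 on slide 1 and 6.47 on slide 2. For 13 of the 16 called genes, the slide-2 array lay beyond both slide-1 arrays in the direction of the 12-week difference, and for 1 it lay beyond both in the opposite direction. Over all genes called at 12 weeks the share in the same direction was 84.5%. In Gria2 and Dlgap4 the slide-2 array differed from the mean of the other 2 by 0.02 and 0.01, and in Grik2 and Grin3a by -0.15 and -0.06. The part of the slide in the 12-week differences of the members cannot be separated from genotype with these arrays.

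**Figure D4:**
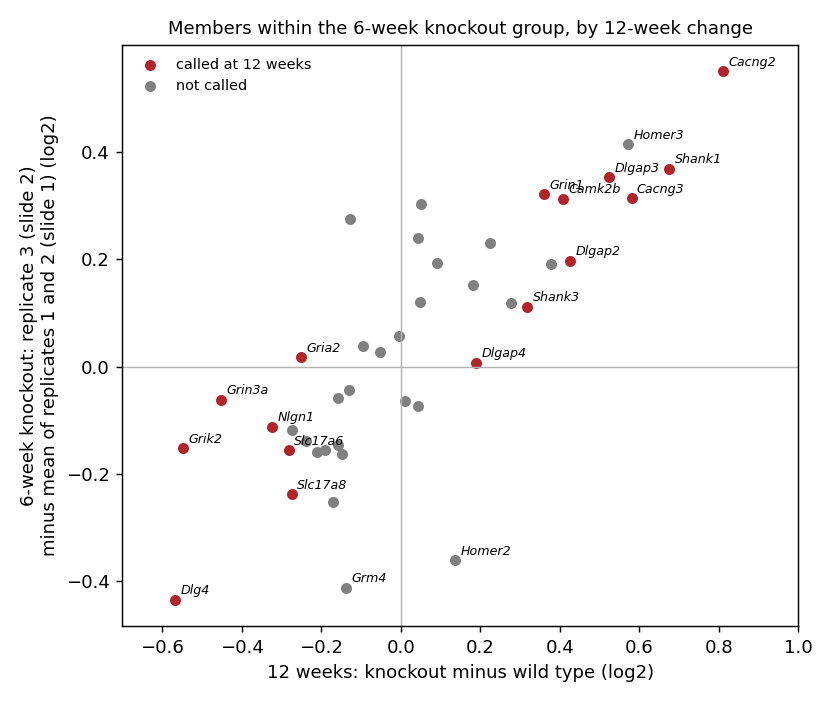
Each point is 1 of the 42 genes; the horizontal axis is the 12-week difference between knockout and wild type, and the vertical axis is replicate 3 of the 6-week knockout (slide 2) minus the mean of replicates 1 and 2 (slide 1), both in log2 units. Red genes were called at 12 weeks; Cacng2 is at the upper right with 0.81 and 0.55, and Dlg4 at the lower left with -0.57 and -0.43.

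The differences at the 2 ages come from separate animals of both genotypes, but replicate 3 of the 6-week knockout shares slide 2 with the 12-week knockout. Agreement in sign between ages can therefore hold a part of the slide, and the share over all genes was not computed. Over the 42 genes, 30 had the same sign at 6 and 12 weeks, and 13 of the 16 called at 12 weeks did. Shank3 differed by 0.43 and 0.32, Dlgap2 by 0.36 and 0.43, Dlgap3 by 0.34 and 0.52, and Grik2 by -0.55 and -0.55. Dlg4 was 0.12 at 6 weeks and -0.57 at 12 weeks, and Nlgn1 0.03 and -0.32. The test of that change between ages is the interaction term, in which none of the 42 was called by limma, against 0.189% of all genes. An unadjusted p under 0.05 was found for 9 members and for 19.6% of all genes. The smallest adjusted p was that of Nlgn1 (-0.35 ± 0.089, adjusted p = 0.123). Without 6-week knockout replicate 3, which leaves that group on slide 1, the count was 7, against 17.8% of all genes in that fit.

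Between 6 and 12 weeks in wild type, all arrays are on slide 1. None of the 42 genes was called by limma, against 0.638% of all genes, and 2 had an unadjusted p under 0.05, against 14.7% of all genes. Grin2b, the NMDA subunit that predominates early in development, read between 0.88 and 1.12 at 6 weeks and between 1.21 and 1.45 at 12 weeks, a difference of 0.29 ± 0.094 (adjusted p = 0.198). The second Grin2b probe, nearly as bright, differed by 0.08 ± 0.11 with overlapping arrays. Shank3 differed by 0.19 ± 0.065 (adjusted p = 0.207), and its dimmer probe by 0.18 ± 0.23. On the brighter probe of both genes the arrays of the ages did not overlap. Such a gap was found for 6 of the 42 members and for 6550 of all 26495 genes. The differences of the members ran from -0.15 to 0.29. The interval of Grin2a, the subunit of mature NMDA receptors, was -0.21 to 0.15.

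In knockout, 12 against 6 weeks also gave no called member by limma, against 2.01% of all genes. An unadjusted p under 0.05 was found for 13 members and for 26.8% of all genes. Nlgn1 differed by -0.27 ± 0.063 (adjusted p = 0.0565), Grin3a by -0.37 ± 0.095 (adjusted p = 0.0630) and Shank1 by 0.50 ± 0.13 (adjusted p = 0.0688). Without 6-week knockout replicate 3 the groups lie on different slides, and 12 members were called, 6 higher and 6 lower, against 7414 of all 26495 genes in that fit. Without 12-week knockout replicate 2, 1 member was called, against 1.78% of all genes. Against the single 6-week array on slide 2, which is what the fit with slide as a block uses, the differences were -0.20 ± 0.076 for Nlgn1, -0.33 ± 0.14 for Grin3a and 0.25 ± 0.16 for Shank1.

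Several members were measured by more than 1 probe, 66 probes in all for the 42 genes, with 21 genes having several. In a fit over all 37198 probes above background, 31.5% were called at 12 weeks. In that fit, without slide, probes of the same gene agreed for Dlgap3, with 0.52 ± 0.094 and 0.56 ± 0.11. Those of Grin1 gave 0.36 ± 0.12 and 0.49 ± 0.10, and both probes of each gene were called. With slide as a fixed block, the brighter probe minus the dimmer was -0.14 for Dlgap3 and -0.64 for Grin1. In the 6-week knockout the brighter Grin1 probe read 2.37 and 2.25 on slide 1 and 2.63 on slide 2. The dimmer Grin1 probe read -2.61 and -2.71 on slide 1 and -2.85 on slide 2. Probes disagreed for Shank1, where the brightest probe rose by 0.68 and the other 2 differed by 0.05 ± 0.15 and 0.04 ± 0.11. The Camk2b probes gave 0.41 ± 0.10 and -0.20 ± 0.11. The dimmer Shank3 probe differed by 0.54 ± 0.23 at 6 weeks (adjusted p = 0.260) and by -0.06 ± 0.23 at 12 weeks, and its arrays scattered widely, from -4.01 to -2.71.

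Some receptor genes had a dimmer probe with a much larger fall than the brighter one. The dimmer Gria2 probe read 0.13, 0.05 and -0.38 in 12-week wild type and -1.11, -1.18 and -1.08 in knockout, a difference of -1.06 ± 0.26 (adjusted p = 0.0159). In the 6-week knockout it read -0.48 and -0.10 on slide 1 and -1.22 on slide 2. The low values of this probe were on slide 2 at both ages. At 12 weeks those arrays are also all the knockout arrays, so slide and genotype cannot be told apart there. The dimmer Gria4 probe, 84.5 kb from the brighter one, read 0.86, 1.06 and 0.95 in 12-week wild type and 0.05, 0.11 and 0.27 in knockout, a difference of -0.81 ± 0.14 (adjusted p = 0.0062). The brighter Gria4 probe differed by -0.13 with overlapping arrays. That probe shares a run of 20 bases, in 1 strand or the other, with 1 probe of another gene name. In the 6-week knockout the dimmer probe read 0.75 and 0.84 on slide 1 and 0.31 on slide 2.

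The Grik2 probes also differed in size of change. The dimmer Grik2 probe, 424 kb away, read -2.11, -1.93 and -2.24 in 12-week wild type and -3.95, -3.63 and -3.55 in knockout, a difference of -1.62 ± 0.33 (adjusted p = 0.00908). In the 6-week knockout it read -2.45 and -2.45 on slide 1 and -3.71 on slide 2. The second Grm5 probe, for a metabotropic receptor that Homer proteins bind, differed by -0.62 ± 0.14 (adjusted p = 0.011), while the brightest differed by -0.16 and the third by 0.06. In the 6-week knockout the second Grm5 probe read 0.27 and 0.22 on slide 1 and -0.27 on slide 2. Slc17a8 and Neto1 also had a dimmer called probe, with differences of -0.98 ± 0.30 and -0.48 ± 0.16. The dimmer Slc17a8 probe had a low mean signal of -4.99. In the 6-week knockout it read -4.55 and -4.56 on slide 1 and -5.49 on slide 2. The dimmer Neto1 probe read 0.12 and 0.03 on slide 1 and -0.52 on slide 2 in that group. In a comparison chosen after the values were seen, the probe nearest the 3′ end was set against the one nearest the 5′ end: the 3′ probe had the higher 12-week difference in 11 of 19 members, with a median gap of 0.09, against 52.1% and 0.02 over 6830 genes with several probes. With slide as a fixed block it was higher in 6 of 19, with a median gap of -0.07, against 47.8% and -0.01. On the slide-2 array of the 6-week knockout, set against the 2 slide-1 arrays of its group, it was higher in 14 of 19, with a median gap of 0.26, against 54.7% and 0.04.

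In the other 10 members with several probes, none was called at 12 weeks. Brighter and dimmer probes differed by 0.28 and 0.15 for Camk2a, by -0.05 and -0.05 for Dlg2, by 0.04 and -0.26 for Gria3, by 0.05 and -0.05 for Grik3, and by -0.15 and -0.01 for Grin2a. They differed by -0.003 and 0.21 for Grin2b, by -0.14 and 0.24 for Grm4, by 0.14 and 0.30 for Homer2, and by 0.57 and -0.19 for Homer3. The 3 probes of Dlgap1 gave -0.17, -0.33 and -0.14. In 5 of these 10 genes, Gria3, Grik3, Grin2b, Grm4 and Homer3, the probes had opposite signs.

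**Figure D5:**
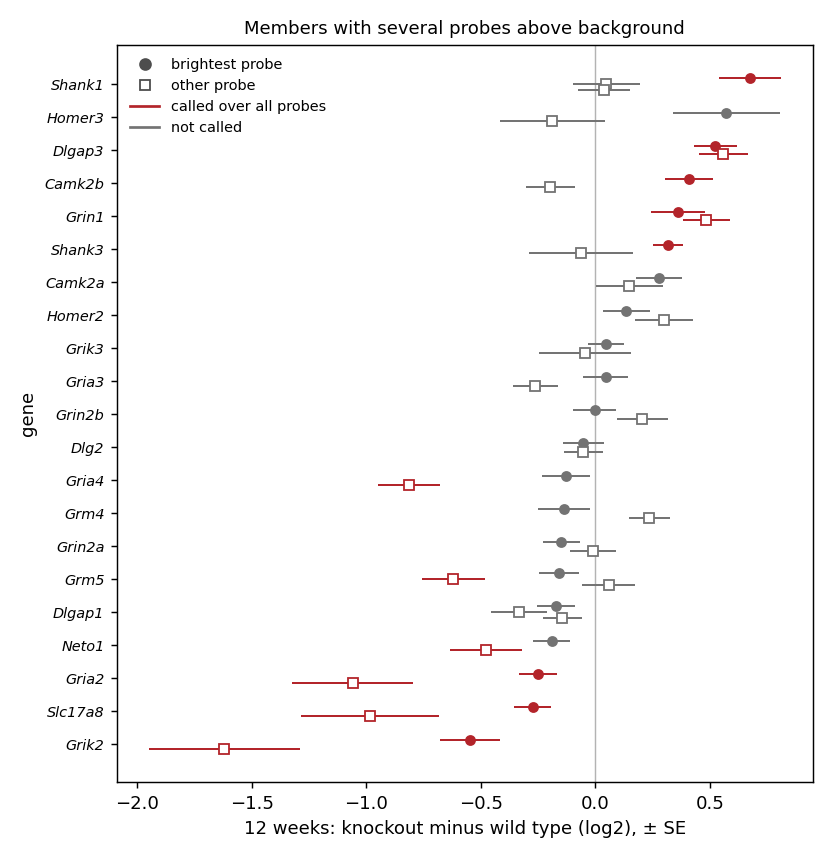
The 21 members with several probes above background (vertical axis) and the 12-week difference between knockout and wild type of each probe (log2, horizontal axis) with its standard error; filled circles are the brightest probe, open squares the others, and red marks probes called over all probes. The probes lie far apart for Grik2 (-0.55 and -1.62), Gria2 (-0.25 and -1.06), Homer3 (0.57 and -0.19), Slc17a8 (-0.27 and -0.98) and Gria4 (-0.13 and -0.81).

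Other genes of the glutamate synapse were taken from 6 lists with 72 genes, of which 69 were measured. At 6 weeks 1 rose and 1 fell, beside 0.925% of all genes called. Arc, an activity-induced gene that drives AMPA receptor removal, rose by 0.99 ± 0.13 (adjusted p = 0.00833). Shank2, the third Shank, was above background on all 6 wild-type arrays and on none of the 6 knockout arrays, and was at least 59.9-fold lower at 6 weeks and at least 51.7-fold lower at 12 weeks. These bounds set the wild-type mean against the lowest signal marked well above background on each knockout array. The bound is larger than any of the members' differences, and the knockout arrays of both slides show it.

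At 12 weeks 22 of the 69 rose and 7 fell, beside the 33.0% of all genes called. The largest rises were those of Lrfn2, a synaptic adhesion protein that binds PSD-95 (0.81 ± 0.14), Synpo, an actin-binding protein of spines (0.70 ± 0.12), and Cnih2, an auxiliary AMPA subunit (0.68 ± 0.12). After Shank2, the largest fall was that of the scaffold Lin7c (-0.80 ± 0.16). With slide as a fixed block, Shank2 was the 1 gene of the 69 still called, beside 0.113% of all genes. Between ages, Lrrtm2 fell in wild type (-0.43), and in knockout Tanc1 rose (0.55) while Arc (-0.71) and Lrrc4c (-0.34) fell. Of all genes, 0.638% were called between ages in wild type and 2.01% in knockout. Arc was the 1 gene of these lists called in the interaction (-1.26 ± 0.18, adjusted p = 0.0371), beside 0.189% of all genes.

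Markers of cell types were read on the same arrays. Their 12-week calls stand beside 33.0% of all genes called at that age, 18.5% higher and 14.5% lower. Summed over 9 neuronal markers, the signal relative to the 75th percentile was 418 to 429 in 12-week wild type and 499 to 540 in 12-week knockout, and 4 of the 9 rose at that age. In the 6-week knockout it ran from 433 to 578. The 7 astrocyte markers summed to 381 to 390 against 459 to 508, with 3 called higher and 1 lower, and the 8 microglial markers to 77.1 to 87.2 against 95.8 to 102, with 4 called higher. Of 6 markers of GABA neurons 2 rose, with sums of 155 to 169 against 204 to 211, and of 8 markers of cortical and hippocampal neurons 3 rose and 1 fell, with sums of 26.5 to 28.2 against 31.5 to 35.3. Of 8 striatal markers 3 rose and 1 fell (97.4 to 110 against 128 to 136), of 7 oligodendrocyte markers 4 rose and 1 fell (258 to 259 against 276 to 280), and of 6 endothelial markers 2 rose. No marker of oligodendrocyte precursors, choroid plexus or hindbrain was called. Of 7 markers of thalamic and midbrain neurons, 2 rose and 3 fell, and their sum was 44.6 to 49.5 against 40.1 to 41.9; that list holds the member Slc17a6. Of 9 cerebellar markers 2 fell, with overlapping sums of 120 to 141 and 117 to 157, and 4 of 5 blood cell markers rose, from 58.5 to 81.6 in wild type to 87.3 to 142 in knockout. None of the 14 lists had a marker called at 12 weeks with slide as a fixed block, and the part of cell makeup in the members' differences was not tested.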

How the data were processed

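The authors deposited a scan file per array and a table of values. The submitters' processing notes name Agilent Feature Extraction 10.7.3.1. The deposited signal columns and the deposited table are fluorescence intensity, per the file headers, and the deposited flag columns are other values of 0 or 1, per the file headers. Probe positions are on mm9, and gene names are those of the files.

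The log2 processed signal was taken relative to the 75th percentile of all the array's non-control spots. Outlier spots (107 to 220 per array) were then left out. Spots of a probe were averaged. The number of arrays limits the precision. The test was that of limma 3.58.1 (R 4.3.3, lmFit and eBayes, two-sided), with 1 mean per group over 12 arrays, 8 residual degrees of freedom, and Benjamini-Hochberg adjustment within each of 5 comparisons. The fit was tested on simulated data.

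Every member was named, called members with every array and members with several probes with each probe, and of the other synapse genes the 3 largest called changes per direction, of which 1 is not reported here. Other settings were slide as a fixed or random block, slide 1 alone, slide column, a replicate block, normexp, quantile normalization, median scaling, the deposited table, other filters on dim probes, the mean over probes, eBayes with trend and robust, only the groups compared, and leaving out arrays. The comparison of probe ends was chosen after the data were seen. The members and lists were chosen with earlier results of these data known. Same-numbered arrays of different groups had correlated deviations of -0.20 to 0.11, so numbers were not taken to pair animals.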

Additional observations from a re-analysis of the deposited data

How the results depend on the processing

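The count of members called at 6 weeks, 1, was 0 on slide 1 alone, with slide column as a block, with the mean over a gene's probes and with only the groups compared, and 2 with normexp, with median scaling and with eBayes with trend and robust. It ran from 0 to 2 as 1 array was left out. Of all genes, 0.925% were called in the main fit at 6 weeks. The share was 0.204% to 0.766% in the settings with 0 members and 1.68% to 2.25% in those with 2. As 1 array was left out it was 0.291% to 0.989%. At 12 weeks the member count of 16 fell to 0 with slide as a fixed block and to 0 as a random block. It ran from 12 to 20 under the other settings that kept every array and from 11 to 14 as 1 array was left out. Of all genes, 0.113% were called with slide as a fixed block and 0.192% as a random block. The share was 18.6% to 36.2% under the other settings and 19.6% to 23.7% as 1 array was left out. With the replicate block the member counts were 1 at 6 weeks and 14 at 12 weeks, 9 higher and 5 lower, and 0 in the other 3 comparisons. The shares of all genes in that fit were 0.434% at 6 weeks, 28.5% at 12 weeks and 0.109% to 0.26% in the other 3. In 12 against 6 weeks in knockout the member count of 0 became 1 with normexp, against 3.45% of all genes. It became 1 with probes above background on all 12 arrays, against 4.07%, and 6 with eBayes with trend and robust, against 7.26%. As 1 array was left out it ran from 0 to 12, against 0.0226% to 28% of all genes. In the difference between ages the member count ran from 0 to 7 as 1 array was left out, against 0.0377% to 17.8% of all genes. In wild type between ages the member count was 0 throughout, against 0.106% to 1.49% of all genes. One sign reversed: Dlgap4 at 12 weeks was -0.0014 under quantile normalization. Beyond the fits with slide, the causes were not tested. The signal of each member was above background on every array.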
